A study of Mus musculus with 13 samples.

Results

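Long intergenic noncoding RNAs (lincRNAs) are transcripts that lie between protein-coding genes and are not translated into a known protein. The 100 lincRNAs described here were chosen by their biotype in the deposited annotation and by their mean count alone, which had to be at least 30 estimated counts over the 13 libraries of the series. No contrast between groups was used, but the mean included the CPZ libraries described below, so a lincRNA high in CPZ could enter through them. Over the 9 CTL and RCV libraries alone, 5 of the 100 had a mean under 30 counts, namely Gm2629 (18.4), Gm42047 (19.3), Gm42031 (27.2), Gm45605 (27.8) and 2900076A07Rik (28.7). The levels are described without a test. They were 100 of 5629 lincRNA rows, and the whole table held 55493 rows. They took 95.35% of all counts on lincRNA rows, and 3395 lincRNA rows had 0 counts in every library. The libraries came from the brains of male mice fed chow with or without cuprizone (CPZ), a copper chelator that causes the loss of mature oligodendrocytes (MOLs). CTL mice (n = 5) received normal chow for 6 weeks, CPZ mice (n = 4) received chow with 0.3% cuprizone for 4 weeks, and RCV mice (n = 4) were returned to normal chow for 2 weeks after 4 weeks on that cuprizone chow. The mice were 6 to 8 weeks old at the start of the diets by the labels, which name no strain or transgene, while the study's methods name wild-type C57BL/6J mice and give a different age. One snap-frozen hemisphere per mouse gave 1 library, so every region of the hemisphere was pooled. CPZ mice were sampled at 4 weeks and the other groups at 6 weeks, so age and diet cannot be told apart in the comparisons with CPZ.

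Many lincRNAs stay in the nucleus, where they hold nuclear bodies together or act on the chromatin from which they are transcribed, and others are the spliced remains of transcripts whose introns or exons carry small nucleolar RNAs (snoRNAs) or microRNAs (miRNAs). In the brain they are often made by particular cell types. Cuprizone feeding is known for the loss of MOLs together with the activation of microglia and astrocytes, and normal chow afterwards for remyelination. Library totals lay between 4605100 and 8197289 estimated counts. Levels of 1 gene across libraries are given as CPM, counts relative to library size after TMM scaling, and levels of different genes are compared only as TPM, which divides by transcript length. A lincRNA was called changed at an adjusted p below 0.05 in the quasi-likelihood test of edgeR, fitted and adjusted over 14985 genes, and all 100 lincRNAs were among these genes.

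Cell type markers moved strongly between the groups and set the background for every value that follows. The summed CPM of 10 microglial markers was 334 to 399 in CTL, 1230 to 2540 in CPZ and 522 to 746 in RCV, and between CPZ and CTL all 10 passed the test as higher in CPZ. The 10 MOL markers summed to 4310 to 8050 CPM in CTL, 1830 to 3120 in CPZ and 5640 to 9660 in RCV, and all 10 were lower in CPZ by the same test. Of 6 astrocyte markers 4, and of 4 precursor markers of oligodendrocytes 1, were higher in CPZ than in CTL. The 8 neuronal markers, which summed to 5650 to 8250 CPM over all libraries, had 0 calls by edgeR, DESeq2 or limma-voom and 0 at an unadjusted p below 0.05 in each comparison. No marker of the 8 lists was at 0 in all libraries. Of 4 endothelial markers 1 was called lower in RCV than in CTL, of 4 blood markers 1 was called lower in CPZ than in RCV, and of 4 choroid plexus markers 0 were called by edgeR, DESeq2 or limma-voom, with 0 at an unadjusted p below 0.05. In bulk tissue fewer cells of a type and less RNA per cell cannot be told apart. Markers of choroid plexus summed to 12.1 CPM in the lowest and 1410 CPM in the highest RCV library, and to 414 to 2720 CPM in CTL. Counts on Ddx3y, a gene of the Y chromosome, lay between 208 and 417 in all libraries.

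Together the 100 lincRNAs took 1.29 ± 0.0266% (SD, n = 5) of all counts in CTL mice. The share was 1.28 ± 0.0676% (SD, n = 4) in CPZ mice, and in RCV mice it was 1.35 ± 0.0437% (SD, n = 4). The largest share was that of Meg3, the maternally expressed RNA of the imprinted Dlk1-Dio3 locus, with 45.2% to 53.7% of the counts of the 100 lincRNAs by library. Malat1, a nuclear speckle RNA, held 10.2% to 21.0%, and 2900097C17Rik, the mouse Norad RNA that binds Pumilio proteins, held 11.0% to 14.9%. The mean count was between 30 and 100 for 59 lincRNAs, between 100 and 1000 for 34 and above 1000 for 7, with a median of 64.8. The threshold divided neighbours that were close in level. Just inside were Gm45605 (mean 31.8 counts), 9330104G04Rik (31.4) and 2700054A10Rik (30.6), and just outside were Gm38910 (29.9), Rmst (29.5) and 5430416N02Rik (28.4).

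**Figure D1:**
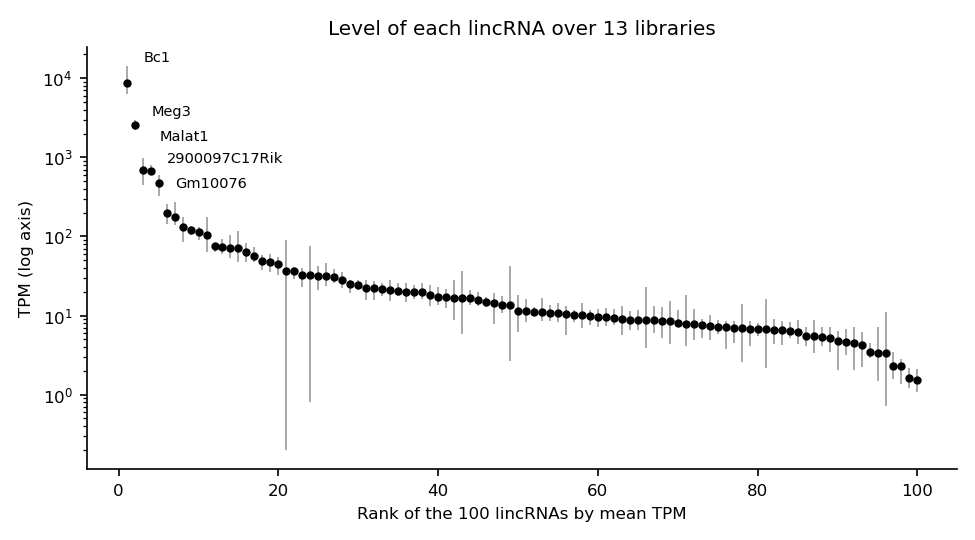
TPM of the 100 lincRNAs on a log axis, ranked by their mean. Points are means over the 13 libraries and grey lines run from the lowest to the highest library. Bc1 leads with a mean of 8690 TPM, and the lowest mean is 1.54 TPM.

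Per length, the order of levels was different from the order of counts. The highest mean TPM was that of Bc1 (8690), followed by Meg3 (2570), Malat1 (696), 2900097C17Rik (672) and Gm10076 (476). The median was 11.3 TPM and the lowest mean 1.54 TPM, with 58 lincRNAs at 10 TPM or more. Bc1 is a short neuronal RNA made by RNA polymerase III that is carried into dendrites and lacks the poly(A) tail of an mRNA. Its 168 bases lie at chr7:144914470-144914637 on the plus strand (GRCm38, annotation of GENCODE M21). The kit captures RNA on oligo-dT, so the transcript is shown with its A-rich stretch in capitals, bases 77 to 131, of which 47 of 55 are A.
Bc1: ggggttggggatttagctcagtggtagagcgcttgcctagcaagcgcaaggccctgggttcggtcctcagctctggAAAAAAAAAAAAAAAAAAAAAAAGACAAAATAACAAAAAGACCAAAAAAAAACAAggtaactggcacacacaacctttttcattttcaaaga

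The CPM of Bc1 in CTL was 74.8, 102, 114, 117 and 182. It was 78.2, 97.2, 98.1 and 104 in CPZ and 83.3, 84.1, 104 and 110 in RCV. The CPZ and RCV values lay within the CTL range, and Bc1 was not called in any comparison (CPZ against CTL, log2 fold change -0.33 ± 0.21 (SE), adjusted p = 0.417 by edgeR). A TPM divides by an effective length that is uncertain for an RNA this short. Gm10076 is a single-exon locus of 384 bases on chromosome 14, and 383 of these bases matched transcripts of Rpl41, a ribosomal protein gene on chromosome 10, so its level is uncertain.

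The 100 lincRNAs were longer than the rest of their class, with a median length of 4187 bases against 971 for the other 5529 lincRNA rows. Length itself raises a count, so this is a description of how a count threshold chooses rows. Positions were found for 97 lincRNAs in GENCODE M21, and all 97 are typed lincRNA there. A single exon was annotated for 28 and at least 2 for 69. Ftx, an RNA of the X inactivation centre, had the most exons with 23. The start lay within 5 kb of the start of a protein-coding gene for 25 and within 1000 bases on the opposite strand for 15, and the median distance was 24001 bases. Exons of a gene on the opposite strand overlapped 20 of them. Whether the counting used strand is not given, so reads of these 20 and of their partners cannot be told apart here. The span of a protein-coding gene overlapped that of 14 lincRNAs, of which Gm42047 was the single one called in a comparison. Among all 100 lincRNAs, 9 were called in a comparison. Gm42047 reached the count threshold only through the CPZ libraries, so this count of calls is a description. In 5 of the 14 coding exons lay on the same strand as exons of the lincRNA, those of Pcnx for Gm49749, Map3k13 for 1300002E11Rik, Scaf8 for Gm49797, Hinfp for Gm48604 and Cyp11a1 for Gm17322, so their counts are uncertain.

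The question of the first comparison was which lincRNAs differed at the end of cuprizone feeding. Of the 100 lincRNAs, 8 were called between CPZ and CTL, or 8.0%, where 10.2% of all genes tested were called. They were 7 higher in CPZ (7.66% of all genes) and 1 lower (2.50% of all genes). Of the 7 higher, Gm2629, Gm42031 and Gm42047 reached the threshold of 30 counts only through the CPZ libraries. They had to be high there, so the counts of calls are a description. The fold changes and adjusted p of these lincRNAs in comparisons with CPZ are a description too. Of the 12027 protein-coding genes with the same mean count or more, 9.99% were called. The median log2 fold change of the lincRNAs was -0.06, against -0.02 over all genes, and 92 lay within 0.5 of 0 in either direction. At an unadjusted p below 0.05 there were 21 lincRNAs, where 22.1% of all genes passed. The CPZ and CTL libraries did not overlap for 11 lincRNAs, where 13.1% of all genes did not overlap.

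**Figure D2:**
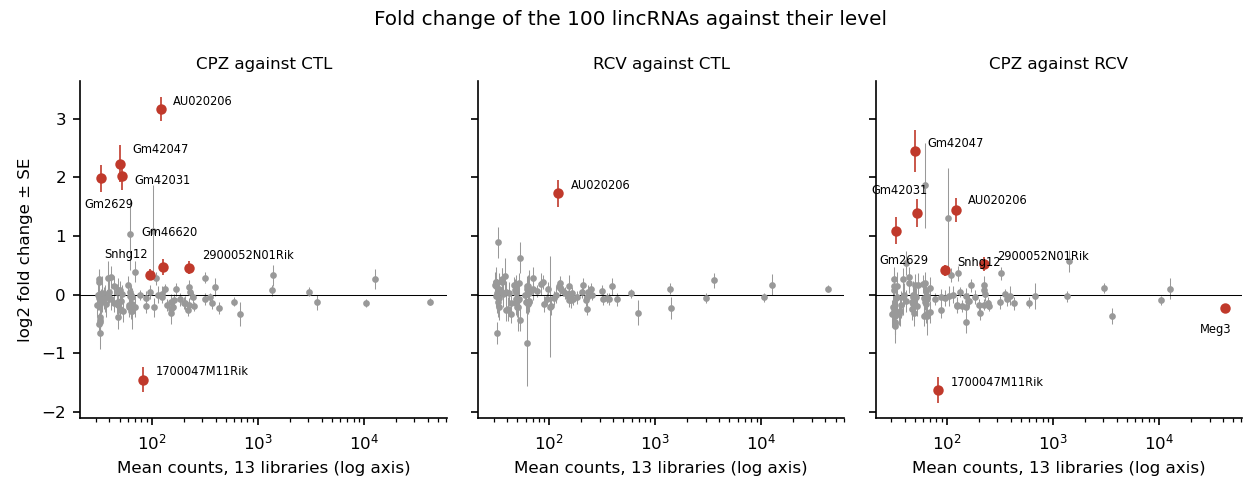
Log2 fold change with its standard error (vertical axis) of the 100 lincRNAs against their mean count over 13 libraries (log axis), in the 3 comparisons. Red points were called at an adjusted p below 0.05 and are named, and grey points were not. Most points lie near 0 at every level, and AU020206 is the highest in CPZ against CTL, at 3.16.

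AU020206 had the largest log2 fold change of the 100 lincRNAs between CPZ and CTL. It lies at chr7:75769038-75782099 on the minus strand, with 3 annotated exons. Its CPM was 3.81, 3.82, 4.00, 4.35 and 4.95 in CTL. In CPZ it was 23.9, 32.7, 42.5 and 50.9, and in RCV 11.4, 12.0, 15.9 and 16.3. The 3 groups did not overlap, with CTL lowest, RCV between and CPZ highest. AU020206 rose 8.97-fold in CPZ against CTL (log2 fold change 3.16 ± 0.21 (SE), adjusted p = 3.4e-07 by edgeR). It was also the single lincRNA called between RCV and CTL (1.73 ± 0.23, adjusted p = 0.00474 by edgeR), and it was higher in CPZ than in RCV (1.44 ± 0.20, adjusted p = 0.000514 by edgeR). By limma-voom the RCV against CTL difference did not pass (adjusted p = 0.0846).

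The microglial markers summed to 2540, 2230, 1230 and 1520 CPM in CPZ replicates 1 to 4, where AU020206 had 50.9, 42.5, 23.9 and 32.7 CPM. Both were highest in replicate 1 and lowest in replicate 3. Within the other groups the orders differed. In CTL replicates 1 to 5 the markers summed to 336, 399, 336, 342 and 334 CPM and AU020206 had 3.81, 4.35, 4.00, 3.82 and 4.95 CPM, and in RCV replicates 1 to 4 the values were 625, 746, 522 and 694 CPM beside 12.0, 15.9, 11.4 and 16.3 CPM. The part of the microglial markers in this result was not tested. No base of the longest AU020206 transcript matched another annotated locus at 97% identity over 100 bases or more. Its window of 250 bases before to 50 bases after the start of RefSeq (chr7:75782071-75782370, GRCm38.p6) is shown because AU020206 was called in all 3 comparisons, with the bases from the start site on in capitals. The RefSeq start lies 21 bases from that of GENCODE M21.
AU020206: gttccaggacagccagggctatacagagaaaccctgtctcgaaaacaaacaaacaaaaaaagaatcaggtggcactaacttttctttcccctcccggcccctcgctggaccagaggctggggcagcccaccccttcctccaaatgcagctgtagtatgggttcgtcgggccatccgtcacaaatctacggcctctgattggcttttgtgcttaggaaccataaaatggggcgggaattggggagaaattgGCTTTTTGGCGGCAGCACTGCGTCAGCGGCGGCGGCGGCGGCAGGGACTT

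Gm42031 and Gm2629 had the same order of groups as AU020206. Gm42031 reached the count threshold only through the CPZ libraries, so its comparisons with CPZ are a description. The CPM of Gm42031 was 3.12, 3.38, 3.45, 3.52 and 4.35 in CTL, 7.21, 15.1, 16.0 and 19.8 in CPZ and 4.77, 5.51, 5.72 and 6.16 in RCV. The groups did not overlap, and it rose 4.05-fold in CPZ against CTL (2.02 ± 0.23, adjusted p = 1.7e-05 by edgeR). The difference between RCV and CTL did not pass the test (0.63 ± 0.26, adjusted p = 0.678 by edgeR), while CPZ against RCV did (1.39 ± 0.24, adjusted p = 0.00195 by edgeR).

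Gm2629 is a 2-exon gene on chromosome 18. Its CPM was 1.54, 1.83, 1.90, 2.85 and 2.91 in CTL, 5.69, 7.62, 10.2 and 11.5 in CPZ and 4.04, 4.05, 4.12 and 4.25 in RCV. The groups again did not overlap. Gm2629 too reached the count threshold only through the CPZ libraries, so its comparisons with CPZ are a description. Gm2629 rose 3.95-fold in CPZ against CTL (1.98 ± 0.23, adjusted p = 2.1e-05 by edgeR) and was higher in CPZ than in RCV (1.09 ± 0.23, adjusted p = 0.00881 by edgeR). For RCV against CTL its log2 fold change was 0.89 ± 0.26, with an adjusted p of 0.263 by edgeR. Like AU020206, Gm42031 and Gm2629 had their lowest CPZ value in replicate 3, the CPZ library with the lowest sum of microglial markers, and the part of these markers was not tested.

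The sequence of Gm42031 limits what its count means. It lies at chr8:85125872-85132289 on the minus strand, and 93.6% of its 1885 transcript bases matched 5 annotated genes elsewhere at 97% identity or more. AI506816 on chromosome 5, which shares a stretch of 330 bases with it, was itself higher in CPZ than in CTL (2.07, adjusted p = 1.4e-06 by edgeR). Gm43305 on chromosome 14, which shares the longest stretch of 748 bases, had a log2 fold change of 0.16 (adjusted p = 0.638 by edgeR). How the counting divided reads between these genes was not tested, so the change of Gm42031 is uncertain as to its locus. For Gm2629 no such match was found.

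Gm42047 was high in CPZ, and its level in RCV was near that of CTL. It lies at chr8:121833247-121841178 on the plus strand, with 4 annotated exons. Its CPM was 1.10, 1.77, 3.06, 4.95 and 5.84 in CTL, 11.7, 14.2, 15.8 and 21.5 in CPZ and 2.17, 2.92, 3.08 and 3.27 in RCV. All CPZ libraries lay above all others, and RCV lay within the CTL range. Gm42047 reached the count threshold only through the CPZ libraries, so its comparisons with CPZ are a description. It rose 4.68-fold against CTL (2.23 ± 0.32, adjusted p = 0.000226 by edgeR) and 5.47-fold against RCV (2.45 ± 0.36, adjusted p = 0.00084 by edgeR), and RCV against CTL was not called (-0.22 ± 0.40, adjusted p = 0.994 by edgeR). Of its 4988 transcript bases 95.9% matched 8 annotated genes elsewhere, so its locus is uncertain too. Its span also lies in that of the coding gene Gm20388, with which it shares no annotated exon. Each of these 8 genes had a mean count under that of Gm42047 (50.5), the highest being 6.92.

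1700047M11Rik was the single lincRNA called lower in CPZ than in CTL. It lies at chr1:182287990-182303325 on the plus strand. Its CPM was 11.6, 14.4, 16.1, 17.4 and 18.2 in CTL, 3.88, 5.83, 6.46 and 6.48 in CPZ and 13.4, 13.9, 17.4 and 25.1 in RCV. No CPZ library reached the lowest library of the other groups, while CTL and RCV overlapped. Its log2 fold change was -1.45 ± 0.21 against CTL (adjusted p = 0.000174 by edgeR) and -1.63 ± 0.22 against RCV (adjusted p = 0.000418 by edgeR). RCV against CTL was not called (0.18 ± 0.19, adjusted p = 0.982 by edgeR).

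The summed MOL markers were also lower in CPZ than in the other groups. In RCV replicates 1 to 4 they summed to 7360, 9660, 6150 and 5640 CPM, and 1700047M11Rik had 17.4, 25.1, 13.9 and 13.4 CPM. Replicate 2 was highest and replicate 4 lowest in both. The orders differed in the other groups. In CTL replicates 1 to 5 the sums were 6840, 6390, 8050, 4310 and 6030 CPM beside 18.2, 17.4, 14.4, 11.6 and 16.1 CPM of the lincRNA, and in CPZ replicates 1 to 4 they were 2130, 1830, 2050 and 3120 CPM beside 6.48, 5.83, 3.88 and 6.46 CPM. The median log2 fold change of the 10 MOL markers was -1.50 in CPZ against CTL. Their part in the result was not tested. No copy of the longest 1700047M11Rik transcript was found at another annotated locus.

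**Figure D3:**
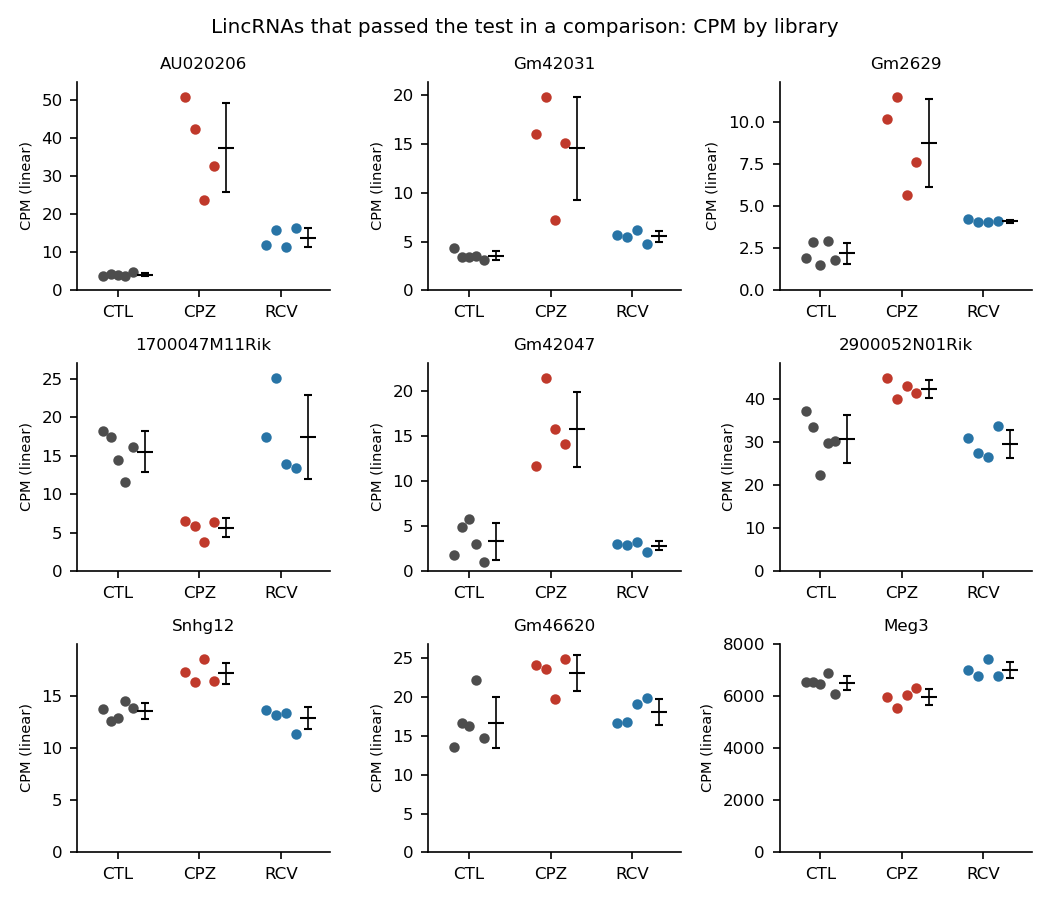
CPM in each library of the 9 lincRNAs called in at least 1 comparison, on linear axes that start at 0. Points are libraries of 5 CTL, 4 CPZ and 4 RCV mice, and the black bar beside them is the group mean with its SD. RCV lies between the other groups for AU020206, Gm42031 and Gm2629, and overlaps CTL for the other 6.

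A set of 3 smaller increases completed the calls between CPZ and CTL. 2900052N01Rik (chr9:46913493-46927366, plus strand) had 22.3, 29.8, 30.3, 33.5 and 37.2 CPM in CTL, 40.0, 41.3, 42.9 and 44.8 in CPZ and 26.4, 27.5, 30.8 and 33.6 in RCV. All CPZ libraries lay above the others. It rose 1.38-fold against CTL (0.46 ± 0.11, adjusted p = 0.0138 by edgeR) and 1.43-fold against RCV (0.52 ± 0.12, adjusted p = 0.0165 by edgeR). The call against CTL was lost under 4 of 24 alternatives and that against RCV under 5. Both were lost under the 3 limma fits on log2 TPM and without CPZ replicate 1. Without RCV replicate 3 the call against RCV was lost too (adjusted p up to 0.098 and 0.11 over the alternatives).

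Snhg12 is a host of snoRNAs, which guide the chemical modification of ribosomal RNA, and carries Snora16a, Snora44, Snora61 and Snord99 within its span at chr4:132308623-132311024 on the plus strand. Its CPM was 12.6, 12.9, 13.7, 13.8 and 14.5 in CTL, 16.3, 16.4, 17.3 and 18.5 in CPZ and 11.3, 13.1, 13.3 and 13.6 in RCV. All CPZ libraries lay above the others. Snhg12 rose 1.27-fold against CTL (0.34 ± 0.09, adjusted p = 0.0219 by edgeR) and 1.33-fold against RCV (0.41 ± 0.10, adjusted p = 0.0166 by edgeR). The call against CTL was lost under 9 of 24 alternatives, among them the DESeq2 Wald test and the fits without CTL replicate 2, CPZ replicate 1 or CPZ replicate 3. Hosts of snoRNAs typically begin with a run of pyrimidines (C or T), so the window around the RefSeq start (chr4:132308428-132308727, GRCm38.p6) is shown with the bases from the start on in capitals. The RefSeq start base lies in a run of 9 pyrimidines, and a run at least as long holds the start in 3.03% of 32851 promoters. This start lies 55 bases from that of GENCODE M21, so the run is described for the RefSeq start only.
Snhg12: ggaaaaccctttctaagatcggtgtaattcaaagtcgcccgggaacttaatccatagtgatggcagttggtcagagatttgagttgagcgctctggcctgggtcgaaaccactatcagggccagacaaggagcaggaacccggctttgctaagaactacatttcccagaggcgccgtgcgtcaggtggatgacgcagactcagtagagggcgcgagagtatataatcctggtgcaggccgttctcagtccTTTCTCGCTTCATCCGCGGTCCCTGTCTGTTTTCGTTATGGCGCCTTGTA

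Gm46620 on chromosome 18 had 13.6, 14.7, 16.3, 16.7 and 22.2 CPM in CTL, 19.7, 23.6, 24.1 and 24.9 in CPZ and 16.6, 16.8, 19.1 and 19.9 in RCV. The CPZ and CTL libraries overlapped. It rose 1.38-fold against CTL (0.47 ± 0.13, adjusted p = 0.024 by edgeR), and CPZ against RCV was not called (0.36 ± 0.13, adjusted p = 0.147 by edgeR). All of its 1875 transcript bases matched other annotated loci. One of them, Gm42427 on chromosome 5, shares a stretch of 1854 bases and was called higher in CPZ than in CTL (0.69, adjusted p = 0.000796 by edgeR). The Gm46620 call was lost under 8 of 24 alternatives, among them the fits without CTL replicate 1 or 5 and without CPZ replicate 1, 2 or 4.

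Meg3 was the most abundant lincRNA by counts and the single abundant one that was called. Its CPM was 6070, 6470, 6530, 6540 and 6860 in CTL, 5550, 5970, 6030 and 6280 in CPZ and 6760, 6770, 6990 and 7410 in RCV. The CPZ libraries lay below all RCV libraries and overlapped CTL. Meg3 fell by 0.23 on the log2 scale in CPZ against RCV (SE 0.06, adjusted p = 0.0288 by edgeR). It was not called in CPZ against CTL (-0.12 ± 0.06, adjusted p = 0.213 by edgeR) or in RCV against CTL (0.10 ± 0.06, adjusted p = 0.859 by edgeR). The call was lost under 9 of 24 alternatives, including the fits without any 1 of CPZ replicates 1 to 3 and RCV replicates 1, 3 and 4, and its adjusted p reached 0.111. Exons of Gm26906 overlap those of Meg3 on the opposite strand.

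The second comparison asked which lincRNAs still differed from CTL after 2 weeks of normal chow. AU020206 was the single lincRNA called between RCV and CTL, or 1.0%, where 0.374% of all genes were called. It was higher in RCV (0.360% of all genes), and none was called lower by edgeR, DESeq2 or limma-voom (0.0133% of all genes). At an unadjusted p below 0.05 there were 7 lincRNAs, where 6.20% of all genes passed. RCV and CTL libraries did not overlap for 3 lincRNAs, where 2.90% of all genes did not. These were AU020206, Gm42031 and Gm2629, all higher in RCV. The median log2 fold change was 0.02, and 95 of the 100 lay within 0.5 of 0. The 10 microglial markers were above CTL in RCV by a median of 1.13 on the log2 scale, with 2 of 10 called by edgeR and 8 by DESeq2, and their part was not tested.

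The third comparison set the end of feeding against recovery, and it shares its CPZ libraries with the first and its RCV libraries with the second. Of the 100 lincRNAs 8 were called between CPZ and RCV, where 7.01% of all genes were called. They were 6 higher in CPZ (5.13% of all genes) and 2 lower (1.88% of all genes). At an unadjusted p below 0.05 there were 22 lincRNAs (19.1% of all genes), and the libraries did not overlap for 12 (13.2% of all genes). The median log2 fold change was -0.05. The 6 higher were AU020206, Gm42031, Gm2629, Gm42047, 2900052N01Rik and Snhg12, and the 2 lower were 1700047M11Rik and Meg3. Gm42031, Gm2629 and Gm42047 had to be high in CPZ to be among the 100, which makes their calls here a description.

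**Figure D4:**
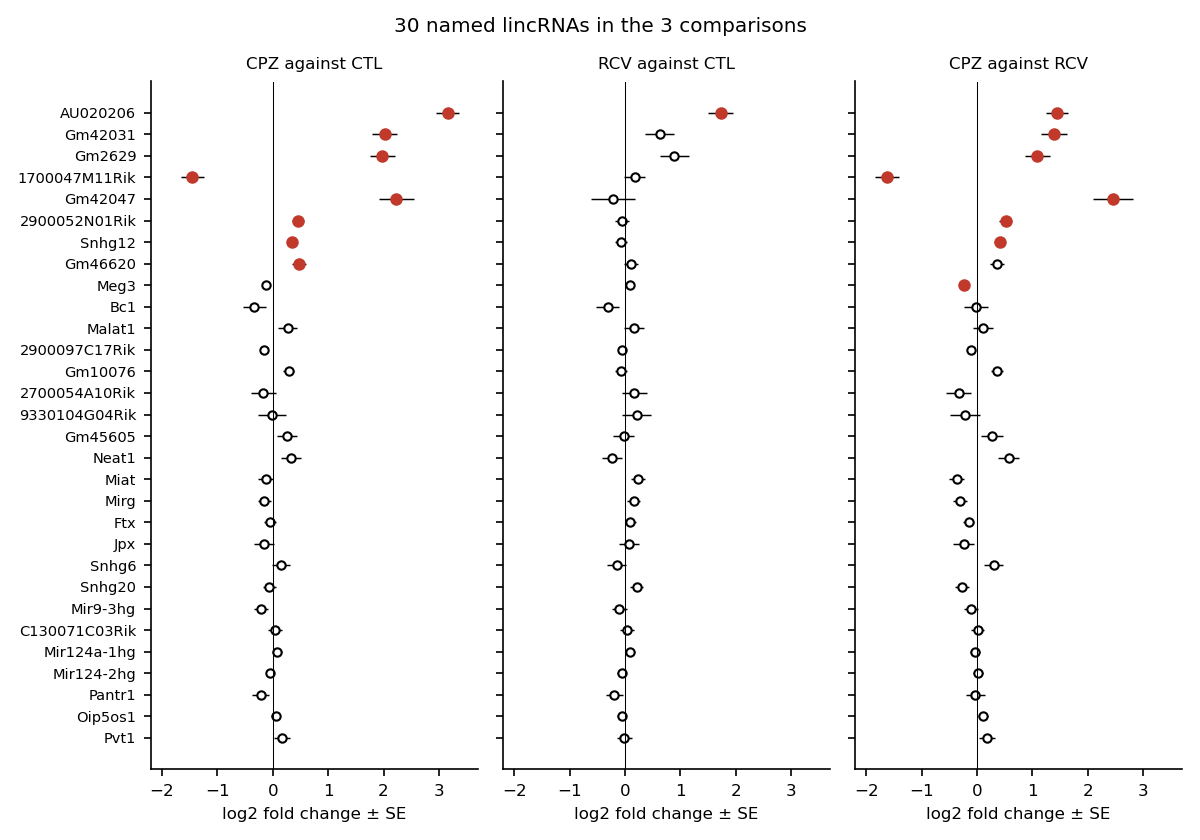
Log2 fold change with its standard error of the 30 named lincRNAs in the 3 comparisons, which share libraries. Red points were called at an adjusted p below 0.05 and open points were not. Below Meg3 no lincRNA was called, and their values lie between -0.37 and 0.57.

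The nuclear-retained RNAs had 0 of 3 called in every comparison by edgeR and by limma-voom, with 2 of 3 at an unadjusted p below 0.05 in CPZ against RCV and 0 in the others. DESeq2 called 1 of them, Neat1, in CPZ against RCV. The shares of all genes called by edgeR were 10.2% in CPZ against CTL, 0.374% in RCV against CTL and 7.01% in CPZ against RCV. At an unadjusted p below 0.05 these shares were 22.1%, 6.20% and 19.1%, so the counts over 3 RNAs are a description. Malat1 had 1300, 1480, 1730, 2010 and 2180 CPM in CTL, 1610, 1870, 1990 and 2910 in CPZ and 1770, 1900, 2060 and 2080 in RCV. The groups overlapped, and CPZ against CTL gave 0.27 ± 0.17 (adjusted p = 0.429 by edgeR). Neat1, the RNA that paraspeckles are built on, had 136, 187, 198, 218 and 272 CPM in CTL, 220, 256, 262 and 280 in CPZ and 138, 143, 185 and 220 in RCV. Its log2 fold change was 0.33 ± 0.18 in CPZ against CTL (adjusted p = 0.329 by edgeR) and 0.57 ± 0.19 in CPZ against RCV (adjusted p = 0.117 by edgeR). Miat, also called Gomafu, a nuclear RNA of neurons, had 464 to 590 CPM in CTL, 466 to 531 in CPZ and 475 to 855 in RCV. Its largest difference was -0.37 ± 0.14 in CPZ against RCV (adjusted p = 0.145 by edgeR).

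Further named lincRNAs were not called by edgeR either. 2900097C17Rik had 1450 to 1850 CPM in CTL, 1460 to 1570 in CPZ and 1520 to 1680 in RCV, with -0.15 ± 0.07 in CPZ against CTL (adjusted p = 0.196 by edgeR). Oip5os1, also called Cyrano, which directs the decay of miR-7, had 393 to 528 CPM in CTL, 459 to 491 in CPZ and 398 to 476 in RCV, with 0.05 ± 0.08 in CPZ against CTL (adjusted p = 0.801 by edgeR). Its CV of 2.99% over the CPZ libraries was the lowest of the 100 lincRNAs in that group. Pvt1, which lies beside the proto-oncogene Myc, had a log2 fold change of 0.17 ± 0.14 in CPZ against CTL (adjusted p = 0.533 by edgeR). Pantr1, a partner of the neural transcription factor gene Pou3f3 on the opposite strand, had -0.22 ± 0.16 (adjusted p = 0.468 by edgeR).

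Gene groups listed by symbol included RNAs outside the 100. Of 18 rows of snoRNA hosts tested, 2 rose in CPZ against CTL, Snhg12 and Gas5 (0.24 ± 0.07, adjusted p = 0.0373 by edgeR). Over all genes 7.66% were called higher. The median of the rows was 0.18. Snhg4 held 2 of these rows, at 0.92 ± 0.42 and -0.01 ± 0.22, and neither was called. Among the 100 lincRNAs, Snhg6 had 0.15 ± 0.16 and Snhg20 had -0.06 ± 0.12, and neither was called. In this comparison 10.2% of all genes were called. Of 6 imprinted RNAs tested, Peg13 was called lower in CPZ than in CTL (-0.21 ± 0.06, adjusted p = 0.035 by edgeR), and Mirg, which lies downstream of Meg3, was not called (-0.15 ± 0.12, adjusted p = 0.539 by edgeR). Of 3 RNAs of the X inactivation centre tested, Ftx (-0.05 ± 0.10) and Jpx (-0.16 ± 0.18) were not called in CPZ against CTL. Xist itself had 0 to 4 counts in CTL, 1 to 12 in CPZ and 10 to 20 in RCV, and was called lower in CPZ than in RCV (-2.18 ± 0.58, adjusted p = 0.0312 by edgeR), where 1.88% of all genes were. RCV against CTL gave 2.84 ± 0.60 for Xist (adjusted p = 0.0608 by edgeR), a difference that DESeq2 called. Of 10 RNAs of neural development tested, 9630013A20Rik was called higher in CPZ than in CTL (0.99 ± 0.27, adjusted p = 0.0255 by edgeR). Of 4 stress-linked RNAs 0 were called by edgeR, DESeq2 or limma-voom, with 1 at an unadjusted p below 0.05 in CPZ against CTL. Of 11 miRNA hosts in the symbol list 0 were called by these tools, with 0, 2 and 2 at an unadjusted p below 0.05 in the 3 comparisons. Over all genes 10.2%, 0.374% and 7.01% were called by edgeR. At an unadjusted p below 0.05 the shares were 22.1%, 6.20% and 19.1%. The 1 row tested of the group with ribosomal RNA or satellite sequence was not called.

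Annotated miRNAs lay within the span of 16 of the 100 lincRNAs. By edgeR, DESeq2 and limma-voom 0 of the 16 were called in CPZ against CTL or in RCV against CTL. At an unadjusted p below 0.05 there were 2 and 0. In CPZ against RCV 1, Meg3, was called, with 4 at an unadjusted p below 0.05. Over all genes 10.2%, 0.374% and 7.01% were called by edgeR in the 3 comparisons. At an unadjusted p below 0.05 the shares were 22.1%, 6.20% and 19.1%. The log2 fold changes of the 16 ran from -0.31 to 0.22 in CPZ against CTL, with a median of -0.06. A level of a host transcript is not a level of the mature miRNA, which these libraries do not measure. RefSeq sequences were found for the miRNAs of 13 of these lincRNAs, with 56 mature sequences and 48 seeds. Shown are miR-9, which lies in 3 of the lincRNAs, miR-1906, which lies in 2, and the 4 miRNAs with the seed of miR-344-5p, with bases 2 to 8, the seed that pairs with targets, in capitals.
miR-9-5p: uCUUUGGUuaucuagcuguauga
miR-9-3p: aUAAAGCUagauaaccgaaagu
miR-1906: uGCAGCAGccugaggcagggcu
miR-344-5p: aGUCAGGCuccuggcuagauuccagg
miR-344b-5p: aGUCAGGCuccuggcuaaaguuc
miR-344c-5p: aGUCAGGCugcuggcuagaguac
miR-344d-3-5p: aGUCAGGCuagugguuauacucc

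The neuronal miRNA miR-9 lies in 3 of these lincRNAs, Gm3764 on chromosome 3, C130071C03Rik on chromosome 13 and Mir9-3hg on chromosome 7. Their levels were 200 TPM for Gm3764, 24.7 TPM for C130071C03Rik and 45.0 TPM for Mir9-3hg. In CPZ against CTL their log2 fold changes were -0.23 ± 0.11 (Gm3764, adjusted p = 0.208), 0.04 ± 0.12 (C130071C03Rik, adjusted p = 0.885) and -0.21 ± 0.12 (Mir9-3hg, adjusted p = 0.349), all by edgeR. The hosts of miR-124, a second neuronal miRNA, were not called either, with 0.07 ± 0.09 for Mir124a-1hg, -0.05 ± 0.08 for Mir124-2hg and -0.16 ± 0.15 for Gm27032. The seed of miR-344-5p is shared by 4 miRNAs that lie within A230057D06Rik on chromosome 7, whose log2 fold change was -0.05 ± 0.10. The sequence miR-1906 is annotated both in Meg3 on chromosome 12 and in Gm27000 on the X chromosome. All 842 bases of Gm27000 matched Meg3 transcripts, so its level of 71.3 TPM is uncertain.

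Copies of this kind touched 16 of the 97 positioned lincRNAs, and 6 had more than 50% of their bases in copies. These 6 were Gm46620, Gm27000, Gm10076, Gm42047, Gm42031 and 2900097C17Rik, and 3 of them were among the 9 called. The search set the longest transcript of each lincRNA against annotated transcripts, not the whole genome, so 16 is a lower bound. Meg3, whose transcripts matched Gm27000, was not among the 16. For 2900097C17Rik the match was Gm7292, which had a mean of 4.91 counts against 10530.

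Promoter windows of RefSeq were found for 49 of the 100 lincRNAs and for 6 of the 9 called. The window of 1700047M11Rik starts from a RefSeq start 12844 bases from that of GENCODE M21. For 1 of the windows of Meg3 this distance is 4397 bases. For Gm42031, 2900052N01Rik and Snhg12 it is 475, 110 and 55 bases. These windows need not be the promoters of the transcripts counted. The letters GAGGAAGT (a PU.1 site), TGATGNAA (an ATF4 or C/EBP site) and CACGTG (an E-box) were searched on both strands, and they occur in 3.20%, 3.97% and 7.15% of 32851 promoters. None of them was in the windows of these 6 lincRNAs. The letters ACAAAG, a SOX site found in 18.7% of promoters, were in the window of 2900052N01Rik at positions -191 and 37 from the start and in no other of these windows.

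Nearest protein-coding genes were examined for the positioned lincRNAs. Some could not be tested, through low counts or an identifier that matched none in the counts, and these reasons were not told apart. Of 68 distinct nearest genes tested, 4 were called in CPZ against CTL (5.88%), 0 in RCV against CTL and 2 in CPZ against RCV (2.94%), where 10.2%, 0.374% and 7.01% of all genes were called. In RCV against CTL 1 passed at an unadjusted p below 0.05, and DESeq2 and limma-voom also called 0. Of the 7 nearest genes of called lincRNAs that could be tested 0 were called by edgeR, DESeq2 or limma-voom, with 1, 0 and 1 at an unadjusted p below 0.05 in the 3 comparisons. Klhl25, whose start is 66.2 kb from that of AU020206, had 0.42 ± 0.15 in CPZ against CTL (adjusted p = 0.0881 by edgeR). Degs1, an enzyme of ceramide synthesis, begins 5.19 kb from 1700047M11Rik on the opposite strand and had -0.08 ± 0.06 (adjusted p = 0.48 by edgeR). Klhdc4, 3.68 kb from Gm42047, had 0.01 ± 0.11 (adjusted p = 0.973 by edgeR).

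Spread between mice set what could be seen. The median CV of a lincRNA over the mice of a group was 14.8% in CTL, 11.6% in CPZ and 16.0% in RCV. In CTL it was 12.2% for lincRNAs with a mean of at least 100 counts and 18.3% below that. The median standard error of the log2 fold change in CPZ against CTL was 0.16 for the 100 lincRNAs and 0.12 over all genes. Differences within this error could not be told from 0. Larger ones could also miss the threshold, as Neat1 did in CPZ against RCV (0.57 ± 0.19, adjusted p = 0.117 by edgeR).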

How the data were processed

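Bulk RNA-seq of 13 mouse brain hemispheres was analysed (5 CTL, 4 CPZ, 4 RCV). The labels' protocol gives 4, 3 and 3 mice, but 13 libraries carry labels, and all were used. Groups came from the treatment label, with titles starting "Veh" for RCV. Deposited by the authors were estimated counts (unscaled), TPM values (scaled to length and library) and an annotation with biotype and length. The submitters' processing notes name STAR, RSEM and mm10, with no versions or strand setting, and the paper names the RNASequest pipeline. The 92 spike-in rows held 0 counts.

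Estimated counts were rounded, then passed through filterByExpr by group and TMM scaling, and entered the robust quasi-likelihood test of edgeR 4.0.16 (R 4.3.3) in one fit of all libraries with Benjamini-Hochberg adjustment over 14985 genes. The threshold was 0.05. CPM are TMM-scaled, and whether libraries overlapped was read from log2 CPM with a prior count of 2. SE is the absolute log2 fold change divided by the square root of F. Replicates are separate mice. Within groups, the chi-square per gene between any pair of libraries was 4.5 to 17.8, more than counting noise gives, so none was counted as a duplicate.

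Positions are from GENCODE M21 (GRCm38, the build mm10), which matched 98.1% of 55401 identifiers. Promoters and miRNAs are RefSeq sequences (GRCm38.p6). Longest transcripts were searched against all M21 transcripts with blastn (97% identity, 100 bases), leaving out genes at the same locus.

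Named are lincRNAs called in a comparison, the 5 with the highest mean TPM, 3 on each side of the threshold of 30 counts and those in 8 groups listed by symbol, and coding genes nearest to a called lincRNA. Outside this rule, Gm3764, Gm27000, Gm27032, the lincRNAs that overlap coding exons or reach 30 counts only through CPZ, A230057D06Rik, Gm47283, Erdr1, Slc7a5, Man2b1 and the genes that share sequence were named after their values were seen. The lincRNAs and all lists were chosen with earlier results of these data known. Alternatives were DESeq2 1.42.0 size factors and its Wald test, limma 3.58.1 (voom, and log2 of TPM with a pseudocount of 1 or 0.1, with and without a filter of 1 TPM in 4 libraries), other count filters, 2 groups only, the replicate block, no ribosomal RNA rows (0.55% to 5.32% of counts), a minimum log2 fold change of 0.25, thresholds of 10 and 100 counts, and each library left out.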

Additional observations from a re-analysis of the deposited data

Results flagged for a closer look

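Over 90 groups of libraries (30 named lincRNAs in 3 groups of mice) 1 library stood apart from the rest of its group. Gm10076 had 32.5 CPM in CTL replicate 5, while the other 4 CTL libraries had 47.1 to 51.4 CPM. On the log2 scale this was a gap of 0.811 of the group's range. Chance alone sets apart about 1 in 20 groups.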

How the results depend on the processing

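Between CPZ and CTL 8 lincRNAs were called, and 5 under each of the 3 limma fits on log2 TPM, 3 of 41 with a threshold of 100 counts and 13 of 205 with a threshold of 10 counts. Between RCV and CTL 1 was called, and 0 by limma-voom. Between CPZ and RCV 8 were called, and 3 of 41 with a threshold of 100 counts. The main fit called 10.2%, 0.374% and 7.01% of all genes in these 3 comparisons. Shares of all genes under the alternatives were not compared, so a changed count need not be particular to lincRNAs. Leaving out 1 library at a time gave counts of 5 to 9, 1 to 1 and 6 to 10, and the 5 was the fit without CPZ replicate 1. AU020206, Gm42031, Gm2629 and 1700047M11Rik kept their calls in CPZ against CTL and CPZ against RCV under all 24 alternatives run. Gm42047 kept its calls under 23, since it was filtered out where at least 10 counts were asked of every library. Gm42031, Gm2629 and Gm42047 had to be high in CPZ to be among the 100, so their kept calls are a description. The other called values kept their sign, and those of 2900052N01Rik, Snhg12, Gm46620 and Meg3 each lost a call under at least 1 alternative. Of 185 values of called results under other settings 165 stayed past the threshold, and of 221 with a library left out 204 did. No called value changed sign. With the replicate number as a block 7, 1 and 7 were called. The numbers mark different mice, and the deviations of same-numbered mice had correlations between -0.199 and 0.136. No pairing was used in the main fit, though correlations over so few mice cannot exclude one. Depth limits the 59 lincRNAs with a mean under 100 counts most.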

Other observations

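Gm47283 and Erdr1, which were not placed in the annotation used for positions, varied most within groups. Gm47283 had 22.7, 0.324, 1.35 and 14.3 CPM in RCV replicates 1 to 4, and Erdr1 had 6.45, 0.162, 0.192 and 10.6 CPM. Both were near 0 in replicates 2 and 3 and not in the others. In CTL replicates 1 to 5 Gm47283 had 5.44, 4.80, 6.15, 23.4 and 17.8 CPM, and Erdr1 had 8.29, 2.55, 9.22, 10.4 and 6.97 CPM. The highest CV of a lincRNA was 117%, that of Erdr1 in RCV. Neither was called by edgeR (CPZ against CTL, 1.09 ± 0.77 with an adjusted p of 0.482 for Gm47283, and 1.03 ± 0.62 with an adjusted p of 0.384 for Erdr1).

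A pair of coding genes farther from called lincRNAs than their nearest neighbour were called. Slc7a5, an amino acid transporter whose start is 74.4 kb from that of Gm42047, was higher in CPZ than in CTL (0.98 ± 0.09, adjusted p = 2.6e-06 by edgeR) and than in RCV (0.84 ± 0.10, adjusted p = 0.000251 by edgeR). Man2b1, a lysosomal mannosidase whose start is 49.0 kb from that of Gm42031, was also higher in CPZ than in CTL (1.21 ± 0.12, adjusted p = 8.0e-06 by edgeR) and than in RCV (0.89 ± 0.13, adjusted p = 0.000698 by edgeR). Both were chosen after their values were seen.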
